A study of Caenorhabditis elegans with 48 samples.

Results

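The genes described here are 10 Caenorhabditis elegans genes of the energy sensing kinases AMPK and TOR, taken by sequence name from count tables that list 44968 genes. On the AMPK side they are the catalytic alpha subunits aak-1 (PAR2.3) and aak-2 (T01C8.1), the beta subunits aakb-1 (F55F3.1) and aakb-2 (Y47D3A.15), and the upstream kinase par-4 (Y59A8B.14). On the TOR side they are the TOR kinase let-363 (B0261.2), the TOR complex 1 (TORC1) subunit daf-15 (C10C5.6), the TOR complex 2 (TORC2) subunit rict-1 (F29C12.3), the S6 kinase rsks-1 (Y47D3A.16) and the Rag GTPase raga-1 (T24F1.1). All 10 passed a filter on low counts by the rule of the study, which kept 16987 genes here, more than the study states.

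AMPK is a kinase of alpha, beta and gamma subunits that is switched on when AMP rises relative to ATP and when LKB1, which par-4 encodes, phosphorylates its alpha subunit. It turns on energy-yielding metabolism and holds back growth, and in starved worm larvae it is known to keep progenitor cells quiescent. TOR works in the opposite sense: TORC1, which holds Raptor, is switched on at the lysosome by amino acids through the Rag GTPases and promotes protein synthesis through S6 kinase, while TORC2, which holds Rictor, acts on fat storage and growth through other kinases.

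The mRNA of whole animals of N2, the wild-type strain, with no transgene and no drug treatment, was sequenced in 48 libraries from 12 time points with 4 replicates each, numbered 1, 5, 6 and 8. Embryos were freed from adults with hypochlorite and kept at 20°C in S-basal, a buffer without food, so that larvae hatched into starvation and stayed in L1 arrest, the developmental arrest of the unfed first larval stage. Times run from nominal hatching (0 h), when by the paper's scoring hatching had begun but much of it was still to come. Samples were taken at -2, 0 and 2 h, then at 4, 6, 9 and 12 h, and on later days at 24, 48, 96, 192 and 288 h, so the -2 h samples were taken before hatching and there was no fed group. More larvae were collected at 192 and 288 h to allow for deaths, and all but 1 of the replicates were each followed in 1 culture, so most samples of a replicate came from the same flask.

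Libraries held 10164115 to 15962842 gene counts, with a median of 12449156.5. The share on ribosomal RNA genes had a median of 3.21%, but it was 49.5% in the -2 h library of replicate 6 and 29.2% in the 24 h library of replicate 8, against 9.89% in the next highest library. Of the 19 calls made for the 10 genes over the 5 main intervals below, 1 was lost without these libraries, that of aak-2 from -2 to 0 h. Levels are in CPM, the count of a gene divided by its library's total after TMM scaling and set to a fixed sum for all libraries, so each level is a share of the mRNA sampled and not an amount per animal. In whole animals, fewer cells of a type and less RNA per cell cannot be told apart. Of 5 sperm genes, which L1 larvae should lack, the highest count in any library was 5. The adult yolk genes went the other way late: 3 of 6 passed the filter, and their summed level was 5.20 CPM at 24 h (2.72 to 6.42), 12.1 CPM at 192 h (8.34 to 17.2) and 37.8 CPM at 288 h (22.3 to 54.7), with 1 called higher in long arrest (vit-6, 2.05) and 2 from 192 to 288 h (vit-2, 1.72, and vit-6, 1.68), in the test described below. Of all genes tested, 19.4% and 7.38% were called higher in these intervals. The part of the yolk genes in the late values of the 10 genes was not tested.

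Change over all 12 time points was tested with a likelihood ratio test in edgeR, and a gene was called at a false discovery rate (FDR) under 0.05. All 10 genes passed, against 84.9% of all genes tested, so passing this test does not set these genes apart. The range of the mean level over time differed widely between them. From the lowest to the highest mean it was 52.0-fold for aak-1, 3.40-fold for aakb-2, 3.17-fold for daf-15, 2.54-fold for rsks-1, 2.298-fold for let-363, 2.22-fold for par-4, 1.92-fold for aak-2, 1.80-fold for rict-1, 1.52-fold for aakb-1 and 1.26-fold for raga-1. The FDR was 0.00105 for raga-1 and at most 4.88e-07 for each of the others, and the raga-1 call was lost without replicate 6 (FDR 0.114) and without a filter on low counts (FDR 0.257). The highest mean was at 192 h for 7 of the 10 genes. The exceptions were aak-1 and rsks-1, which were highest at 288 h, and rict-1, which was highest at 12 h and lowest at 288 h.

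**Figure D1:**
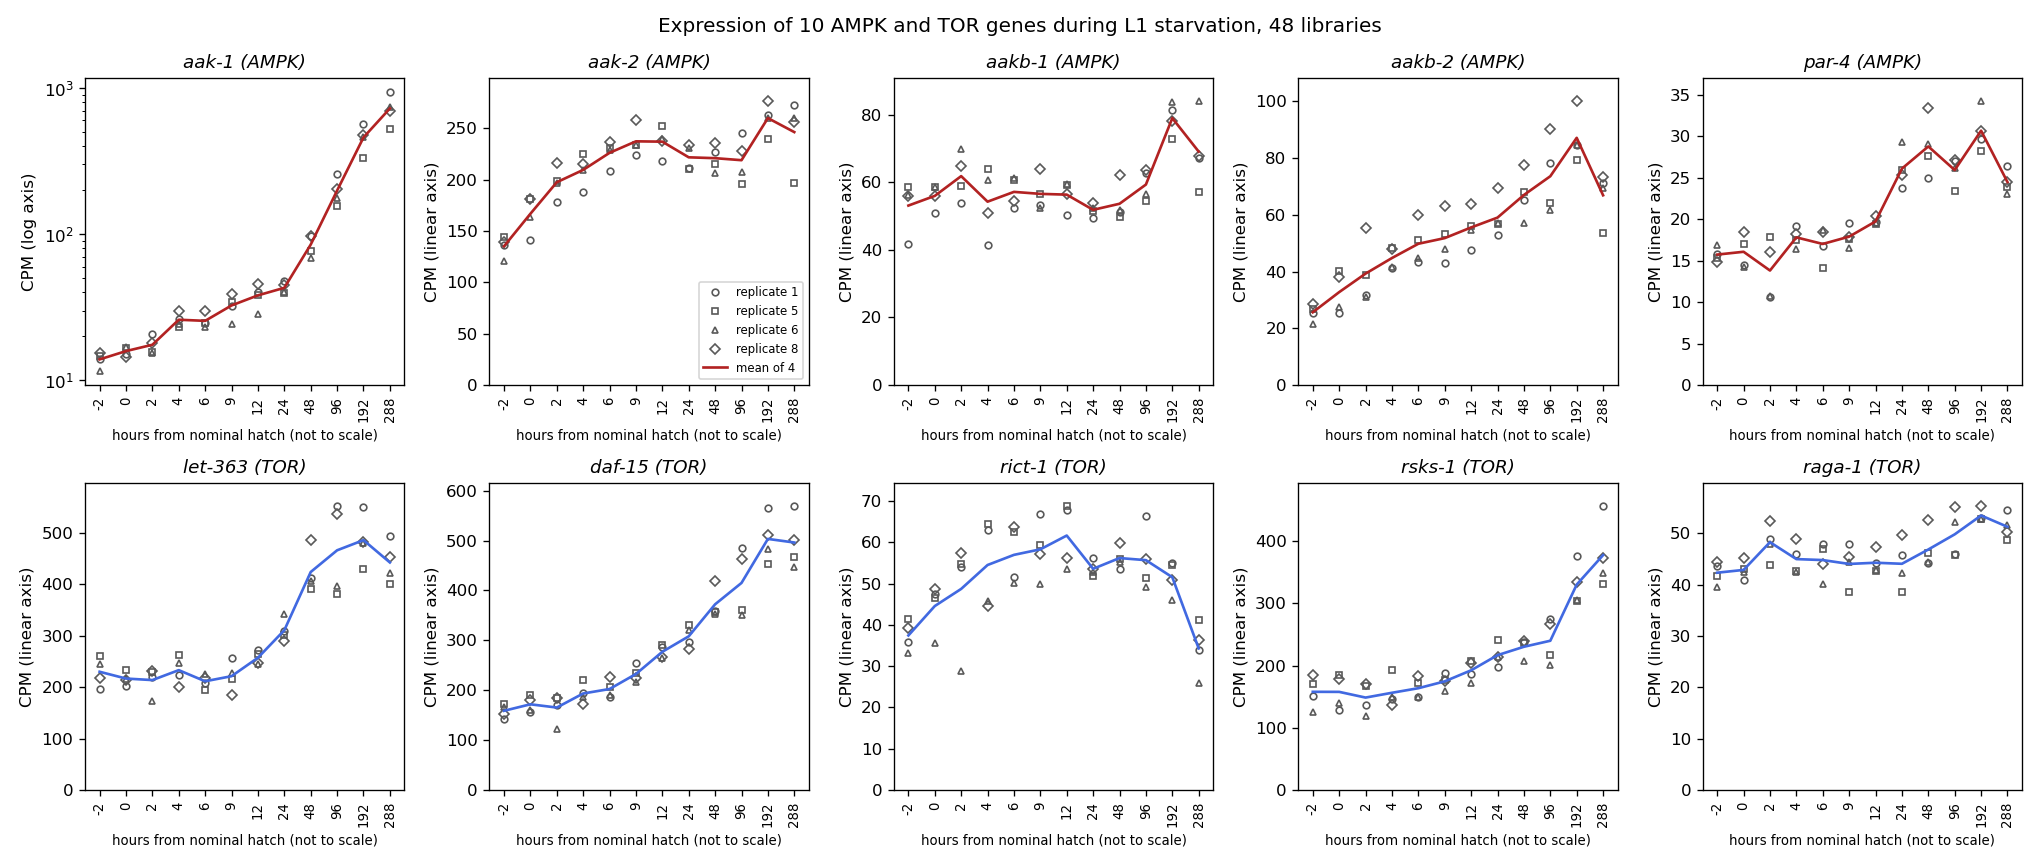
CPM of the 10 genes (y axis, log scale for aak-1 and linear from 0 for the others) at 12 time points in hours from nominal hatching (x axis, evenly spaced and not to scale). Symbols are single libraries of replicates 1, 5, 6 and 8, and lines join the means of 4. The mean of aak-1 climbs from 13.9 CPM at -2 h to 724 CPM at 288 h, while rict-1 goes from 61.6 CPM at 12 h to 34.3 CPM at 288 h.

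The 5 main intervals follow one another: hatching (0 h against -2 h), early starvation (12 h against 0 h), the rest of the first day (24 h against 12 h), long arrest while most larvae lived (192 h against 24 h) and the time when most died (288 h against 192 h). The names go by nominal time. Since much of the hatching was scored after 0 h, the interval named hatching covers only its start. The interval named early starvation takes in the rest of hatching, whose part in the changes from 0 to 12 h was not tested. For each interval the quasi-likelihood F test of edgeR was used, with log2 fold changes given with their standard error (SE). Hatching gave a call for 1 gene, where 23.8% of all genes were called in either direction. Early starvation gave 6 higher genes, against 22.2% higher and 23.3% lower in all genes, and the rest of the first day gave 1 higher gene, against 4.26% and 5.3%. Long arrest gave 8 higher genes, against 19.4% and 20.3%, and the last interval gave 1 higher and 2 lower, against 7.38% and 17.4%. Without regard to the test, all 4 libraries lay above all 4 of the earlier time for 7 genes at 12 h against 0 h (20.8% of all genes did), for 2 at 24 h against 12 h (7.69%) and for 8 at 192 h against 24 h (18.7%), and all 4 lay below for 3 at 288 h against 192 h (15.9%). No gene of the 10 was called lower in the intervals up to 192 h, where edgeR gave 0 lower also at an unadjusted p under 0.05 and DESeq2 gave 0.

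The median log2 fold change of the 10 genes was 0.38 in early starvation and 0.59 in long arrest, beside -0.02 and -0.05 for all genes tested. It was 0.10 at hatching, 0.12 over the rest of the first day and -0.11 from 192 to 288 h, beside 0.03, 0.02 and -0.004. Genes of AMPK and of TOR were called in the same direction in early starvation and in long arrest. In early starvation 4 of the 5 AMPK genes and 2 of the 5 TOR genes were called higher, and in long arrest the count was 4 of 5 for each.

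**Figure D2:**
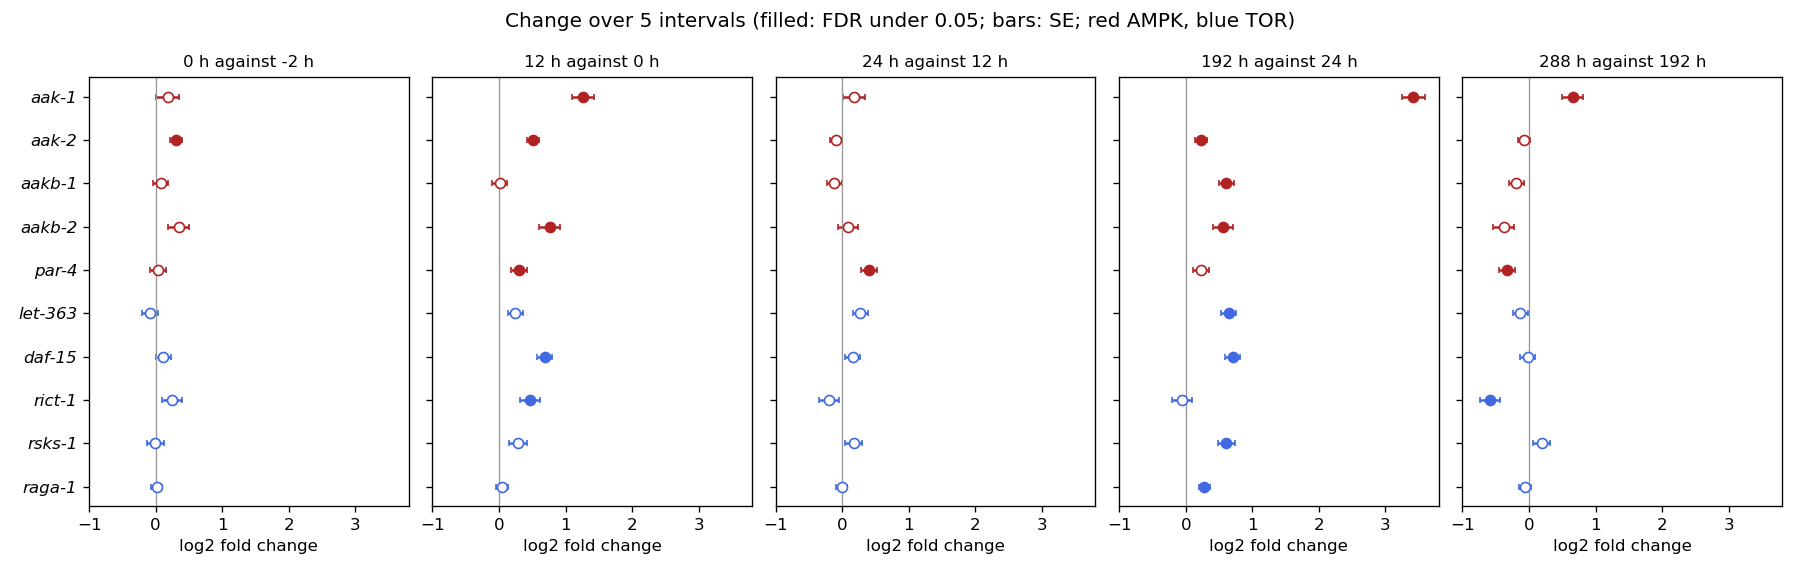
Log2 fold change (x axis) of the 10 genes (rows) over the 5 main intervals (panels), with bars of 1 SE and filled points where the FDR was under 0.05 (red AMPK, blue TOR). The aak-1 point at 3.42 from 24 to 192 h stands far to the right of the other genes, which reach 0.71, and rict-1 sits at -0.59 from 192 to 288 h.

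The AMPK alpha subunits carry the kinase domain, and worms have a pair of them. aak-1 was measured at 15.2, 16.8, 16.95 and 14.6 CPM at 0 h in replicates 1, 5, 6 and 8. At 12 h it was at 40.2, 38.2, 28.4 and 45.9 CPM. Every 12 h library lay above every 0 h library, and replicate 6 was the lowest at 12 h. The rise was 1.26 on the log2 scale (SE 0.17, FDR 3.01e-08, higher in 4 of 4 replicates). From 12 to 24 h the change was not called (0.17, SE 0.16, FDR 0.609).

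After the first day aak-1 rose in each step between adjacent time points. It was at 47.9, 39.5, 40.0 and 44.6 CPM at 24 h and at 97.5, 76.7, 68.3 and 97.2 CPM at 48 h, a step of 0.98 (SE 0.16, FDR 0.0002) where 3.15% of all genes were called. At 96 h it was at 258, 156, 176 and 205 CPM, a step of 1.23 (SE 0.16, FDR 4.99e-06) where 4.11% were called. At 192 h it was at 563, 333, 462 and 478 CPM, a step of 1.21 (SE 0.16, FDR 3.09e-07) where 14.1% were called. None of these time points overlapped with the one before it. The whole change from 24 to 192 h was 3.42 on the log2 scale (SE 0.17, FDR 6.42e-20), which took the mean of 43.0 CPM (SD 4.01, n = 4) at 24 h up to 459 CPM (SD 95.1, n = 4) and ranked 27 from the largest rise among the 16987 genes, with falls at the other end of that order.

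From 192 to 288 h aak-1 was the only gene of the 10 called higher. Its levels at 288 h were 933, 523, 742 and 698 CPM, with a mean of 724 CPM (SD 168, n = 4). Replicate 1 was the highest and replicate 5 the lowest at both times, and the replicate 5 library at 288 h fell below that of replicate 1 at 192 h, so the groups overlapped although all 4 replicates were higher. The change was 0.66 (SE 0.16, FDR 0.00115). The calls of aak-1 in early starvation, long arrest and the last interval stood under every alternative processing tried, with log2 values of 1.13 to 1.42, 3.32 to 3.47 and 0.61 to 0.86.

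Part of the aak-1 transcript shares its position with another gene. In the WBcel235 annotation, 100 bases of its exons (4.28%) overlap exons of sma-2 on the other strand, and the strand mode of the counting is not given in the sources used here. The level of sma-2, a Smad of the body size pathway, went the other way late, from 47.2 CPM at 24 h to 32.2 CPM at 192 h (-0.55, SE 0.125, FDR 0.000311) and 12.9 CPM at 288 h (-1.32, SE 0.131, FDR 9.02e-11). In early starvation sma-2 rose, as aak-1 did, from 24.9 to 46.3 CPM (0.89, SE 0.124, FDR 6.84e-08).

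The other alpha subunit, aak-2, is the one best known for its role in worm lifespan and stress. It was at 136, 144, 121 and 140 CPM at -2 h and at 141, 181, 164 and 181 CPM at 0 h, where all 4 replicates were higher but the groups overlapped. This change of 0.30 (SE 0.09, FDR 0.0119) was the only call at hatching, and without both libraries rich in ribosomal RNA it was 0.25 (FDR 0.0745). By 12 h aak-2 had reached 218, 253, 239 and 238 CPM. All of these lay above the 0 h libraries, with a rise of 0.51 (SE 0.09, FDR 9.42e-06) that held under every alternative.

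After 12 h the mean of aak-2 moved little. It was 222 CPM (SD 12.2, n = 4) at 24 h, 221 CPM at 48 h, 219 CPM at 96 h, 260 CPM (SD 15.1, n = 4) at 192 h and 246 CPM (SD 33.7, n = 4) at 288 h. The difference of 0.23 between 192 and 24 h (SE 0.09, FDR 0.0405) passed the threshold but lost it under 8 of 13 alternatives, where the FDR reached 0.424. At 288 h replicate 5 was the lowest at 197 CPM, and the change from 192 h was not called (-0.08, SE 0.09, FDR 0.593). A stretch of 78 exon bases (3.21%) overlaps mec-4 on the other strand, and mec-4, a touch neuron channel, was itself at 6.56 CPM at 24 h and 18.1 CPM at 192 h.

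The balance of the alpha subunits was followed as the ratio of aak-1 to aak-2 within each library, per kilobase of exon, which needs no scaling between libraries. aak-2 was far more abundant at the start: the ratio had a geometric mean of 0.107 at -2 h and 0.0993 at 0 h. It was 0.165 at 12 h (range 0.124 to 0.201), 0.201 at 24 h, 0.396 at 48 h and 0.931 at 96 h (range 0.831 to 1.09). At 192 h it was 1.81 (range 1.44 to 2.23) and at 288 h it was 3.02 (range 2.76 to 3.56), so aak-1 was the more abundant alpha subunit mRNA in every library of both late times. The log2 ratio changed by 0.74 in early starvation, by 3.17 in long arrest and by 0.74 in the last interval, each upward in 4 of 4 replicates. Each had a 2-sided exact permutation p of 0.0286, the smallest that 4 against 4 allows, and 0.0429 after adjustment over the 9 ratio tests made. That adjusted value was set by how many of the 9 tests reached the smallest p, not by the size of a change. When paired by replicate number the exact p was 0.125, the smallest that 4 pairs allow.

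The beta subunits hold the AMPK complex together. At hatching the change of aakb-2 was not called (0.35, SE 0.16, FDR 0.112), but with the replicate number as a block it was 0.34 (SE 0.11, FDR 0.017). aakb-2 was at 25.305, 40.3, 27.3 and 38.03 CPM at 0 h and at 47.6, 56.0, 54.6 and 63.9 CPM at 12 h, with no overlap. This rise of 0.76 (SE 0.16, FDR 7.59e-05) was followed by one of 0.56 (SE 0.15, FDR 0.00282) from 24 to 192 h, between 52.9, 56.6, 57.2 and 69.3 CPM and 84.7, 79.2, 84.4 and 100 CPM. Replicate 8 was the highest at both times. At 288 h aakb-2 was at 71.2, 53.5, 69.3 and 73.4 CPM, below all 192 h libraries, but the change of -0.38 (SE 0.15) was not called (FDR 0.0647). With the replicate number as a block it was -0.37 (SE 0.11, FDR 0.00522).

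The mean of aakb-1 stayed between 51.8 and 61.8 CPM from -2 to 96 h, and the change from 0 to 12 h was 0.01 (SE 0.11, FDR 0.96). It then rose from 49.6, 51.6, 52.4 and 53.8 CPM at 24 h to 81.3, 72.7, 83.7 and 78.2 CPM at 192 h, with no overlap (0.61, SE 0.11, FDR 2.28e-05). The step from 96 to 192 h alone was called (0.41, SE 0.11, FDR 0.00876). At 288 h its libraries spread from 57.1 CPM in replicate 5 to 84.0 CPM in replicate 6, and the change was not called (-0.19, SE 0.11, FDR 0.23).

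The ratio of aakb-1 to aakb-2 per kilobase fell in early starvation. It was 3.03 at 0 h (range 2.52 to 3.72), 1.77 at 12 h (range 1.54 to 1.89) and 1.53 at 24 h, a log2 change of -0.78 from 0 to 12 h that was downward in 4 of 4 replicates (exact permutation p = 0.0286, adjusted 0.0429; 0.125 when paired). It was 1.58 at 192 h and 1.79 at 288 h. The changes of 0.04 in long arrest (pooled SD 0.139, exact permutation p = 0.514, upward in 4 of 4 replicates, 0.125 when paired) and 0.18 in the last interval (pooled SD 0.166, exact p = 0.229, upward in 3 of 4, 0.25 when paired) did not pass. On average aakb-1 remained the more abundant beta subunit mRNA per kilobase at all of these times.

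**Figure D3:**
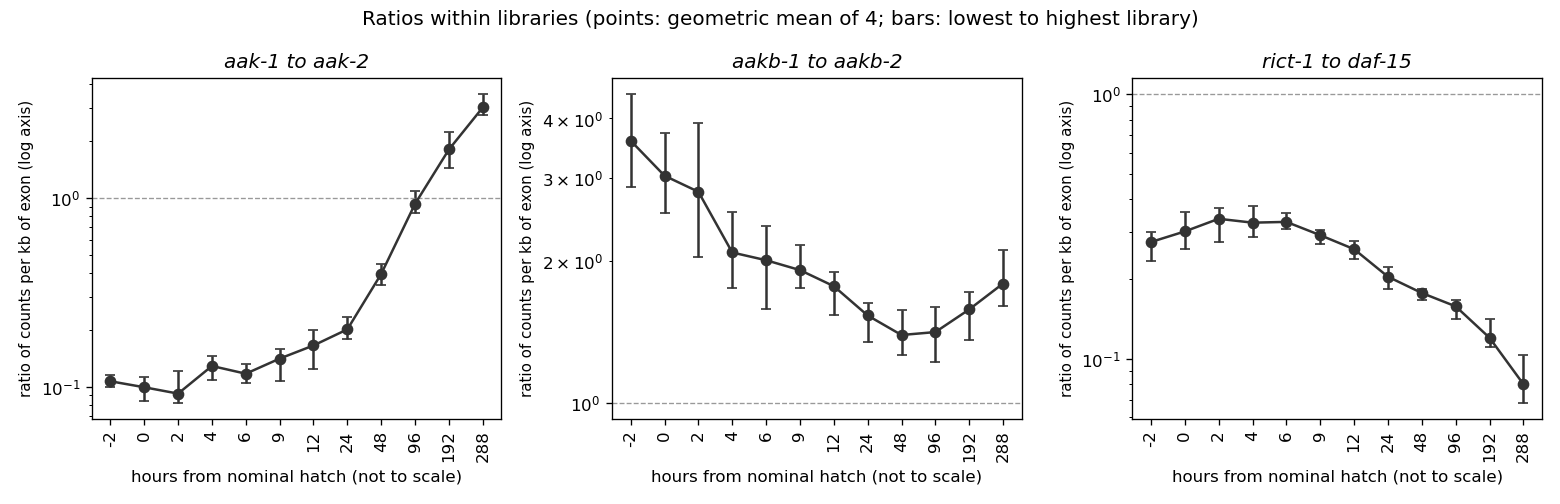
Ratios of 3 gene pairs within each library, in counts per kilobase of exon (y axis, log scale), at 12 time points in hours (x axis, not to scale). Points are geometric means of 4 libraries, bars run from the lowest to the highest library and the dashed line marks equal levels. The aak-1 to aak-2 ratio crosses that line between 96 and 192 h, and the rict-1 to daf-15 ratio goes from 0.303 at 0 h to 0.0802 at 288 h.

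par-4 encodes the worm LKB1, which activates AMPK. Its mean was 16.1 CPM (SD 2.01, n = 4) at 0 h and 19.7 CPM (SD 0.470, n = 4) at 12 h (0.29, SE 0.12, FDR 0.0411). It was at 19.6, 19.4, 19.5 and 20.4 CPM at 12 h and at 23.8, 25.9, 29.3 and 25.34 CPM at 24 h, with no overlap, and it was the only one of the 10 called in that interval (0.40, SE 0.12, FDR 0.0222). From 24 to 192 h the change was not called (0.23, SE 0.12, FDR 0.119). At 192 h it was at 29.6, 28.2, 34.2 and 30.6 CPM and at 288 h at 26.5, 23.9, 23.0 and 24.5 CPM, again without overlap (-0.33, SE 0.12, FDR 0.0374).

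The 3 calls of par-4 each depended on the processing. The rise from 0 to 12 h was lost under 6 of 13 alternatives, that from 12 to 24 h under 5 and the later fall under 11, with the FDR reaching 0.375, 0.45 and 0.636. No alternative turned the sign of any of these changes.

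On the TOR side, let-363 encodes the kinase of both complexes. It was at 203, 234, 216 and 214 CPM at 0 h and at 273, 265, 244 and 247 CPM at 12 h, with all 12 h libraries above the 0 h ones, but the change was not called (0.25, SE 0.11, FDR 0.073). It rose from 310, 302, 342 and 290 CPM at 24 h to 552, 430, 482 and 482 CPM at 192 h (0.64, SE 0.11, FDR 8.54e-06). The step called within this time was that from 24 to 48 h (0.45, SE 0.11, FDR 0.0179), after which the mean was 424 CPM (SD 42.1, n = 4). At 288 h it was at 494, 401, 422 and 453 CPM, which overlapped with 192 h (-0.14, SE 0.11, FDR 0.434).

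daf-15 encodes Raptor, the subunit that binds TORC1 targets. It was at 156, 191, 161 and 180 CPM at 0 h and at 287, 291, 264 and 267 CPM at 12 h, with no overlap (0.69, SE 0.11, FDR 1.40e-06). From 297, 332, 321 and 283 CPM at 24 h it reached 565, 453, 484 and 512 CPM at 192 h (0.71, SE 0.11, FDR 1.01e-06). Both rises held under every alternative. No single step was called, although 4 of the 11 had an unadjusted p under 0.05. Its mean went through 193 CPM at 4 h, 232 CPM at 9 h, 372 CPM at 48 h and 415 CPM at 96 h. At 288 h the mean was 496 CPM (SD 53.8, n = 4), beside 503 CPM (SD 47.6, n = 4) at 192 h, and the change was not called (-0.02, SE 0.11, FDR 0.92).

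rict-1 encodes Rictor, the subunit that defines TORC2, and it did not share the late rise of daf-15. It was at 47.5, 46.4, 35.6 and 48.7 CPM at 0 h and at 67.9, 68.8, 53.6 and 56.3 CPM at 12 h, with no overlap (0.47, SE 0.15, FDR 0.00809). From 24 to 192 h no change was called (-0.06, SE 0.15, FDR 0.817). It then fell from 54.96, 54.5, 45.9 and 50.8 CPM at 192 h to 33.8, 41.2, 25.8 and 36.2 CPM at 288 h, where every library was below every 192 h library (-0.59, SE 0.15, FDR 0.00243). Replicate 6 was the lowest at all 4 of these times. Both calls were lost only when no scaling factors were used (FDR 0.144 and 0.184).

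The ratio of rict-1 to daf-15 per kilobase, a comparison of the mRNAs of the subunits that define TORC2 and TORC1, was 0.303 at 0 h and 0.259 at 12 h, a log2 change of -0.22 that did not pass (exact permutation p = 0.114, adjusted 0.147) although it was downward in 4 of 4 replicates (0.125 when paired). It was 0.204 at 24 h, 0.120 at 192 h and 0.0802 at 288 h. The changes of -0.77 in long arrest and -0.58 in the last interval were each downward in 4 of 4 replicates (exact permutation p = 0.0286, adjusted 0.0429; 0.125 when paired).

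rsks-1 encodes the S6 kinase that TORC1 activates. It was at 128, 185, 140 and 178 CPM at 0 h and at 187, 207, 171 and 204 CPM at 12 h, which overlapped although all 4 replicates were higher, and the change was not called (0.29, SE 0.13, FDR 0.0658). With the replicate number as a block it was 0.29 (SE 0.11, FDR 0.0234). It rose from 198, 241, 214 and 214 CPM at 24 h to 376, 304, 306 and 334 CPM at 192 h, with no overlap (0.61, SE 0.13, FDR 0.000141). The step from 96 to 192 h was called (0.46, SE 0.13, FDR 0.0102). At 288 h it was at 456, 331, 349 and 373 CPM, higher than at 192 h in 4 of 4 replicates, but the change was not called (0.19, SE 0.13, FDR 0.301).

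raga-1 encodes the Rag GTPase that reports amino acids to TORC1, and it varied least. It was at 40.9, 42.9, 42.4 and 45.1 CPM at 0 h and at 44.2, 42.7, 42.7 and 47.3 CPM at 12 h (0.05, SE 0.08, FDR 0.7). It was at 45.8, 38.5, 42.2 and 49.6 CPM at 24 h and at 52.9, 52.8, 52.8 and 55.3 CPM at 192 h, with no overlap. This change of 0.28 (SE 0.09, FDR 0.00662) was lost without replicate 5 (0.20, FDR 0.106), without a filter, without scaling factors and in a fit of these time points alone.

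Across the 11 steps between adjacent time points, 11 of 110 tests gave a call, of which 4 were those of aak-1. The others were aak-2 at hatching, par-4 at 24 and 288 h, let-363 at 48 h, aakb-1 and rsks-1 at 192 h, and rict-1 at 288 h. Of all genes 23.8% were called at hatching, 9.55% at 24 h and 24.7% at 288 h, beside the shares given with aak-1 for 48, 96 and 192 h. No gene of the 10 was called in any step from 0 to 12 h, where 4.77% of all genes were called at 2 h, 1.18% at 4 h, 0.436% at 6 h, 2.07% at 9 h and 0.824% at 12 h, and 7 of the 50 tests of these genes had an unadjusted p under 0.05.

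Levels of different genes are compared per kilobase of exon. At 0 h the highest were aak-2 at 68.6 CPM per kilobase, rsks-1 at 51.7 and aakb-1 at 49.9, and the lowest were aak-1 at 6.79, par-4 at 8.67 and rict-1 at 8.87. At 288 h aak-1 was the highest at 310 CPM per kilobase, ahead of rsks-1 at 124, aak-2 at 101 and daf-15 at 84.3. rict-1 at 6.83 CPM per kilobase and par-4 at 13.2 were the lowest. aak-1 thus went from the lowest of the 10 to the highest, while rict-1 and par-4 stayed among the lowest. Exon lengths came from WBcel235 and ran from 1122 bases for aakb-1 to 8560 bases for let-363. The genes lie on chromosomes I, II, III, IV, V and X, with aakb-2 and rsks-1 next to each other by sequence name on chromosome III.

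The shapes of the time courses were compared by Pearson r over the 12 mean log2 values, as a description over points that share their libraries within a time. aak-1 was most like rsks-1 (r = 0.975) and daf-15 (r = 0.951), and daf-15 was like let-363 (r = 0.947). rict-1 was unlike all others, with r from -0.245 to 0.472. Beyond the 10 genes, the closest of 8274 protein-coding genes to aak-1 were C37C3.1 (r = 0.996), the cyclic nucleotide phosphodiesterase gene pde-2 (r = 0.995) and the RING finger gene rfp-1 (r = 0.995). Their levels moved less than that of aak-1: pde-2 was at 256 CPM at 24 h and 779 CPM at 288 h. For aakb-2 the closest were cab-1, slc-25A37 and the synaptotagmin gene snt-6 (each r = 0.994), and for daf-15 they were Y56A3A.33 (r = 0.998), T13F2.6 and the Niemann-Pick C1 homologue ncr-2 (each r = 0.997). High likeness was common, since 508 genes had r over 0.95 with aak-1, 427 with aakb-2 and 874 with daf-15.

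Other genes of both pathways were taken from fixed lists. The AMPK list held 12 genes: the gamma subunits aakg-1 to aakg-5, the LKB1 cofactors strd-1 and mop-25.1 to mop-25.3, the folliculin gene flcn-1, the kinase ckk-1 and the coactivator crtc-1. In early starvation 5 of the 12 rose and 3 fell, where 22.2% of all genes rose and 23.3% fell. aakg-4 rose most, with 49.1 CPM at 0 h (SD 7.17, n = 4) and 133 CPM at 12 h (SD 5.95, n = 4), a change of 1.44 (SE 0.12, FDR 1.97e-13), and aakg-2 fell most, from 37.4 to 22.7 CPM (-0.72, SE 0.12, FDR 1.2e-06). Genes of 1 family thus moved in both directions.

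In long arrest 4 of the AMPK list rose and 2 fell, where 19.4% of all genes rose and 20.3% fell. The calcium-dependent kinase kinase gene ckk-1 rose most, from 45.9 CPM at 24 h to 76.1 CPM at 192 h (0.73, SE 0.11, FDR 3.27e-07). aakg-5 fell most, from 85.9 to 48.5 CPM (-0.83, SE 0.11, FDR 6.65e-08), and it fell further to 19.8 CPM at 288 h (-1.29, SE 0.12, FDR 9.39e-12), while ckk-1 rose to 98.7 CPM (0.38, SE 0.11, FDR 0.00608). In that last interval 2 of the list rose and 2 fell, beside 7.38% and 17.4% of all genes. These counts moved both ways with the processing. They were 0 higher and 1 lower without replicate 1, and 0 and 2 without a filter. Without scaling factors they were 4 higher and 1 lower, and in DESeq2 4 and 2. At hatching, where 23.8% of all genes changed, the counts were 3 and 1, with aakg-4 highest (0.57, SE 0.12, FDR 0.000573) and flcn-1 lowest (-0.44, SE 0.13, FDR 0.0104), and from 12 to 24 h, beside 4.26% and 5.3% of all genes, they were 1 and 1, strd-1 (0.35, SE 0.11, FDR 0.0299) and aakg-2 (-0.36, SE 0.12, FDR 0.0481). The flcn-1 call and the calls at 24 h were lost under 6 or more of 13 alternatives. Over the 5 intervals in order of time, the median of the list was 0.15, 0.16, -0.04, -0.06 and 0.11. Of the 5 gamma subunits, 2 were lower and 0 higher from 24 to 192 h, with 0 higher also at an unadjusted p under 0.05 and in DESeq2.

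The TOR list held 18 genes: mlst-8, ragc-1, rheb-1 and sinh-1 of the complexes and their activators, the amino acid sensing genes nprl-2, nprl-3, sesn-1, lmtr-2, lmtr-3 and lmtr-5, the kinase sgk-1, the eIF4E genes ife-1 to ife-5, rps-6 and eef-2. In early starvation 6 of the 18 rose and 2 fell (22.2% and 23.3% of all genes). The translation elongation factor gene eef-2 rose most, with 4728 CPM at 0 h (SD 628, n = 4) and 9162 CPM at 12 h (SD 358, n = 4), a change of 0.95 (SE 0.10, FDR 5.41e-11), and ife-4, one of the genes for the mRNA cap binding protein eIF4E, fell most (-0.53, SE 0.17, FDR 0.00889, but 0.0652 without replicate 1). In long arrest 7 rose and 3 fell (19.4% and 20.3% of all genes). lmtr-5, a part of the lysosomal anchor of the Rag GTPases, went from 30.8 to 58.1 CPM (0.92, SE 0.11, FDR 1.17e-09), and sesn-1, the sestrin gene, went from 89.5 to 41.2 CPM (-1.12, SE 0.11, FDR 7.94e-12).

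From 192 to 288 h 6 of the 18 TOR list genes were called lower, 0 were called higher and 12 did not pass, where 17.4% of all genes were lower and 7.38% higher. rps-6, the gene of the ribosomal protein that S6 kinase phosphorylates, fell most, with 2816 CPM at 192 h (SD 314, n = 4) and 1805 CPM at 288 h (SD 190, n = 4; -0.64, SE 0.11, FDR 7.14e-06). The edgeR quasi-likelihood test gave 0 genes higher also at an unadjusted p under 0.05, and DESeq2 gave 0, while without scaling factors 2 were lower and among genes of a mean CPM of at least 10 there was 1 higher. At hatching 4 of the list rose and 1 fell (23.8% of all genes changed), with ife-1 highest (0.37, SE 0.14, FDR 0.0432, lost under 8 of 13 alternatives) and ife-4 lowest (-0.70, SE 0.17, FDR 0.0016), and from 12 to 24 h, where 4.26% of all genes rose, 1 rose, ife-1 (0.49, SE 0.14, FDR 0.014, lost under 4 of 13 alternatives). Over the 5 intervals the median of the list was 0.12, 0.10, 0.11, 0.19 and -0.14.

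**Figure D4:**
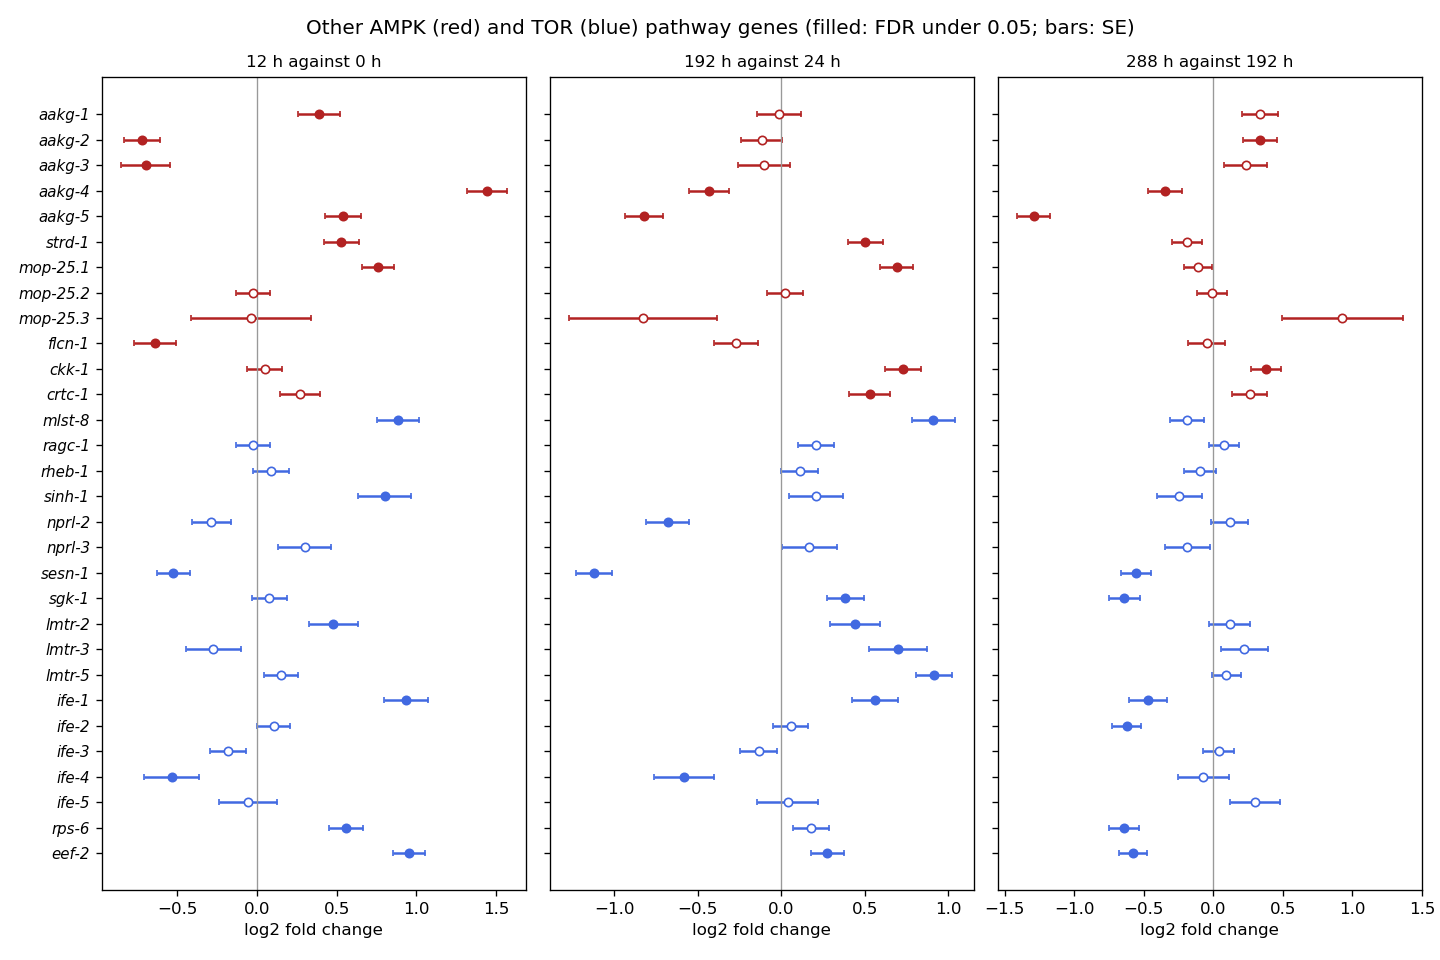
Log2 fold change (x axis) of the 30 other AMPK (red) and TOR (blue) pathway genes (rows) over 3 intervals (panels), with bars of 1 SE and filled points where the FDR was under 0.05. In the panel of 288 h against 192 h the 6 filled TOR points all lie to the left of 0, and aakg-5 lies at -1.29.

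Marker genes of tissues moved over the same late intervals. The summed level of 7 muscle genes was 18850 CPM at 24 h (18100 to 19890), 6923 CPM at 192 h (5541 to 8335) and 1229 CPM at 288 h (689 to 1719), with 5 of 7 lower in long arrest and then 7 of 7 in the last interval. Of all genes tested, 20.3% were lower and 19.4% higher in long arrest, and 17.4% and 7.38% in the last interval. The 6 intestine genes summed to 2603, 979 and 350 CPM at 24, 192 and 288 h, with 5 and then 3 of 6 lower. The 7 neuron genes summed to 2829 CPM at 24 h (2705 to 2874), 4376 CPM at 192 h (3979 to 4559) and 3789 CPM at 288 h (3130 to 4440), with 2 of 7 higher from 24 to 192 h. Such sums follow the most abundant genes of a list. The median log2 fold changes over these intervals were -1.04 and -0.34 for the intestine genes and 0.20 and -0.23 for the neuron genes. The 7 germline genes summed to 78.2, 62.8 and 71.5 CPM, with 2 of 7 lower in long arrest and 1 higher in the last interval. The 5 hypodermis genes summed to 106, 79.0 and 74.7 CPM, with 3 and then 1 of 5 lower. The part of these shifts in the late values of the AMPK and TOR genes was not tested.

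The same lists also moved from 0 to 12 h. Muscle genes summed to 16080 and 18460 CPM with 1 of 7 higher and 1 lower, intestine genes to 2587 and 2431 CPM with 3 of 6 higher and 3 lower, and neuron genes to 1748 and 2332 CPM with 1 of 7 higher and 2 lower. The median log2 fold change was -0.04 for the muscle, 0.05 for the intestine and -0.09 for the neuron genes. Germline genes summed to 97.2 and 76.5 CPM with 3 of 7 lower, and hypodermis genes to 150 and 107 CPM with 3 of 5 lower. Of all genes tested, 22.2% were called higher and 23.3% lower. The part of the marker shifts in the early rises was not tested either.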

How the data were processed

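The authors made libraries from poly(A) RNA with the NEBNext Ultra RNA kit, sequenced them as single-end reads on an Illumina HiSeq instrument, mapped them with bowtie to the WS210 genome release keeping reads with up to 2 locations, and counted reads per gene with HTSeq. Tool versions and the strand mode are not given in the sources used here. The deposited values were raw counts, 1 table per library, with 44968 genes and 5 summary entries, which took 21.1 to 29.7% of the reads and were left out of library totals. Replicates were separate samples, but most of a replicate's time points came from 1 culture, and molecules were not tagged before PCR.

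The study's filter, a CPM above 1 in 4 or more libraries, left 16987 genes, more than the study states, and the cause of that difference was not tested. Counts were scaled by TMM in edgeR 4.0.16 (R 4.3.3), tested over 12 time points with the likelihood ratio test, as in the study, and between times with the 2-sided quasi-likelihood test in 1 fit of 48 libraries, with Benjamini-Hochberg adjustment over all genes and a threshold of 0.05. The SE was taken as the absolute log2 fold change over the root of the F statistic. Ratios within libraries were tested with 2-sided exact permutation tests of log2 ratios, 4 against 4, adjusted over 9 tests. The scripts were tested on simulated data. Alternatives were other scaling, filters on low counts, leaving out each replicate, a replicate block, leaving out the libraries rich in ribosomal RNA, fits of the compared time points alone and DESeq2 1.42.0.

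Symbols, exon lengths and overlaps came from WBcel235, matched by sequence name for all 10 genes. Besides aak-1 and aak-2, exons of aakb-2 overlap the noncoding RNA gene Y47D3A.35 on the same strand by 109 bases (5.59%). Those of rict-1 overlap col-86 on the same strand by 37 bases (0.74%), and those of daf-15 overlap col-121 on the other strand by 107 bases (1.82%). The part of these overlaps in the counts was not tested. No coordinates or sequences are given, since the tables carry none and belong to another release. All 10 genes, the genes of the fixed lists with the largest called rise and fall per interval, and the 3 genes most like each of the 3 genes of widest range are named. The genes and lists were chosen with earlier results of these data known.

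Replicate numbers came from the labels. They were taken to pair the samples in every interval, since the study followed all but 1 of the replicates in a single flask each. The main tests did not use this pairing. It entered only through the replicate block, the paired ratio tests and the counts of replicates by direction. After the time point means were removed, same-numbered libraries had a median r of 0.213 over 264 pairs, and 45 of 48 libraries were most like their own number. The lowest and highest r of a pair were 0.0491 and 0.356 for 0 h against -2 h, 0.269 and 0.383 for 12 h against 0 h, 0.254 and 0.427 for 24 h against 12 h, 0.0915 and 0.483 for 192 h against 24 h, and 0.202 and 0.645 for 288 h against 192 h.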

Additional observations from a re-analysis of the deposited data

Results flagged for a closer look

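In each time point of each gene, the highest or lowest of the 4 libraries was compared with the others by Dixon's gap, and 6 of 120 groups had a library set apart, where chance gives about 1 in 20. aakb-1 was lowest in replicate 1 at -2 h with 41.8 CPM, against 55.9 to 58.6 CPM in the others, and highest in replicate 8 at 48 h with 62.1 CPM, against 49.6 to 51.7 CPM. daf-15 was highest in the same library, replicate 8 at 48 h, with 419 CPM, against 353 to 359 CPM. rict-1 was lowest in replicate 6 at 2 h with 28.7 CPM, against 54.1 to 57.3 CPM. rsks-1 was lowest in replicate 6 at 48 h with 207 CPM, against 236 to 240 CPM. raga-1 was highest in replicate 8 at 192 h with 55.3 CPM, against 52.8 to 52.9 CPM, a gap that is small in size. Of these libraries, only those at -2 and 192 h enter the 5 main intervals.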

How the results depend on the processing

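Over 13 alternatives for the 10 genes and 5 intervals, 597 of 650 values kept their side of the threshold, 41 lost a call, 12 gained one and 0 called values reversed. Of the 19 calls, 11 stood under every alternative. For hatching the count of 1 became 2 without scaling factors and with the replicate block, 0 without a filter, without both libraries rich in ribosomal RNA and in a fit of these time points alone, and 0 to 1 when replicates were left out. From 12 to 24 h the count of 1 became 0 without scaling factors and without a filter, 2 with a mean CPM of at least 10 and in a fit of these time points alone, and 0 to 1 when replicates were left out. From 192 to 288 h the count of 3 became 1 without scaling factors, and the par-4 call in that interval held under only 2 of 13 alternatives. In early starvation the par-4 call held under 7 and the rict-1 call under 12. There let-363 and rsks-1 stayed uncalled under 11 and 10. In long arrest the aak-2 call held under 5 and the raga-1 call under 9. The 11 calls over steps became 6 without scaling factors and 6 to 7 without replicate 6 or 8. With the replicate block, only the calls of aakb-2 and rsks-1 given above changed among the 10 genes and 5 intervals, while 2 of the AMPK list were lower at hatching in place of 1 and 2 of the TOR list were higher from 12 to 24 h in place of 1. Paired by replicate number, the ratio changes of 0.74, 3.17, 0.74, -0.78, -0.77 and -0.58 had p = 0.125 in the exact permutation test, which cannot pass with 4 pairs. Of the other pathway genes, only those with the largest called rise and fall per list and interval were checked for reversals under the same alternatives. This check was added after the data were seen, and 0 values reversed. It does not cover the remaining genes of the lists.

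Without scaling factors the median of all genes shifted by 0.138 at hatching, -0.12 in early starvation, -0.223 over the rest of the first day and 0.211 in the last interval, and the share of higher genes among those called was 66.9%, 38.2%, 7.1% and 61.3%, in place of 48.4%, 48.8%, 44.5% and 29.8%. Upper-quartile scaling gave a shift of 0.13 and 49.5% in the last. At hatching 4051 genes were called, and 2578 without both libraries rich in ribosomal RNA. From 12 to 24 h 1623 were called, 2472 with the block and 962 to 1186 without 1 replicate. At 83 to 11495 counts per library for aak-1 and 121 to 419 for par-4, counting error was small for aak-1 late and larger for par-4.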
